A study of Mus musculus with 18 samples.

Results

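In wild-type (WT) mouse embryonic stem cells (ESCs), RNA that sedimented with 2 to 4 ribosomes, the low polysome fraction, was compared with RNA that sedimented with 1 ribosome, the monosome fraction. The comparison holds 6 of the 18 libraries of the series, 3 of each fraction, and the libraries of a number were cut from the same sucrose gradient, so that each of the 3 gradients gave its own low polysome to monosome ratio. The cells were the V6.5 line, grown in 15% serum with LIF and the 2i inhibitors, so the WT group is 1 line. They received 100 ug/ml cycloheximide for 2 min, which holds ribosomes on messages, before lysis and a spin through 10 to 50% sucrose at 35000 RPM for 3 h. The other 12 libraries are the WT high polysome fraction (4 or more ribosomes) and the same 3 fractions of ESCs that lack Dgcr8 (DGCR8 KO), a gene needed to process primary microRNA transcripts. The KO cells received the same medium, cycloheximide and spin.

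A ribosome that has just joined a message sediments with it as a monosome, and each further ribosome moves the message down the gradient. The number of ribosomes a message can carry depends on how often ribosomes start, how fast they move and how long the coding sequence is. RNA that carries no translating ribosome, such as a long noncoding RNA, can also reach the monosome fraction as part of another particle of like size. Low polysomes are a middle class: a short message can hold few ribosomes, and a long message with few starts can hold as many.

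Each library counts the 3′ ends of polyadenylated transcripts (QuantSeq). Levels are counts scaled to a library of 1000000 (CPM), so a level says what share of a fraction's RNA a gene makes up and not how many molecules the fraction held. The WT monosome libraries held 1151649 to 1578231 counts and the WT low polysome libraries 2847570 to 3521636, so the monosome values carry the larger counting error: 3 counts equal 1.94 to 2.65 CPM in monosomes and 0.837 to 1.06 CPM in low polysomes. The ESC markers fixed for the check of the label, 10 genes with Pou5f1, Sox2 and Nanog among them, were all detected, with a summed level of 3505 to 3658 CPM in monosomes and 3953 to 4098 CPM in low polysomes. The summed level of 7 fibroblast markers was 9.73 to 12.7 and 8.46 to 12.3 CPM, with Col1a2, Col3a1, Lum, Dcn and Postn at 3 counts or fewer in all 6 libraries. For 7 primitive endoderm markers, the transcription factors Gata6, Sox17, Sox7 and Foxa2 among them at 3 counts or fewer throughout, it was 4.02 to 8.84 and 3.31 to 8.11 CPM. A wider primitive endoderm list with matrix genes summed to 843 to 918 CPM in monosomes and 1307 to 1784 CPM in low polysomes, and its most abundant gene, Sparc, was at 890.0, 828 and 819.6 CPM in monosomes and 1745, 1399.6 and 1273 CPM in low polysomes (0.79, not called). The sum for 7 trophoblast markers was 39.4 to 64.3 and 56.4 to 67.4 CPM, and the 6 markers of 2-cell-like cells were at 3 counts or fewer throughout. A wider trophoblast list summed to 171 to 220 CPM in monosomes and 158 to 192 CPM in low polysomes. Among the lists of these other cell types 1 tested gene was called between the fractions. This was Krt18 of the wider trophoblast list (-1.5, lower in low polysomes), with a mean under 50 counts. edgeR and DESeq2 each called 1 of 6 primitive endoderm genes that limma-voom did not. These are bulk fractions, in which fewer cells with a message and less of the message per cell cannot be told apart.

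Of 12851 genes tested, 600 were higher in low polysomes and 1253 were higher in monosomes, at an adjusted p under 0.05 and a log2 difference over 1 (limma-voom with the gradient as a block, Benjamini-Hochberg adjustment over all genes). The called genes were 14.4% of those tested, with 4.67% higher in low polysomes and 9.75% lower there. The quartiles of all genes lay at -0.51 and 0.43 on the log2 scale, around a median of -0.03. The 3 low polysome libraries lay above all 3 monosome libraries for 24.9% of the genes and below them for 24.6%. Among the 1853 called genes, 1778 had fractions that did not overlap, and 1823 had a ratio of the same sign in all 3 gradients. Across the genes, Spearman's rho of the log2 ratio between any pair of the WT gradients was 0.63 to 0.66 (n = 12851 genes, which share libraries' depth), given as a description.

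**Figure D1:**
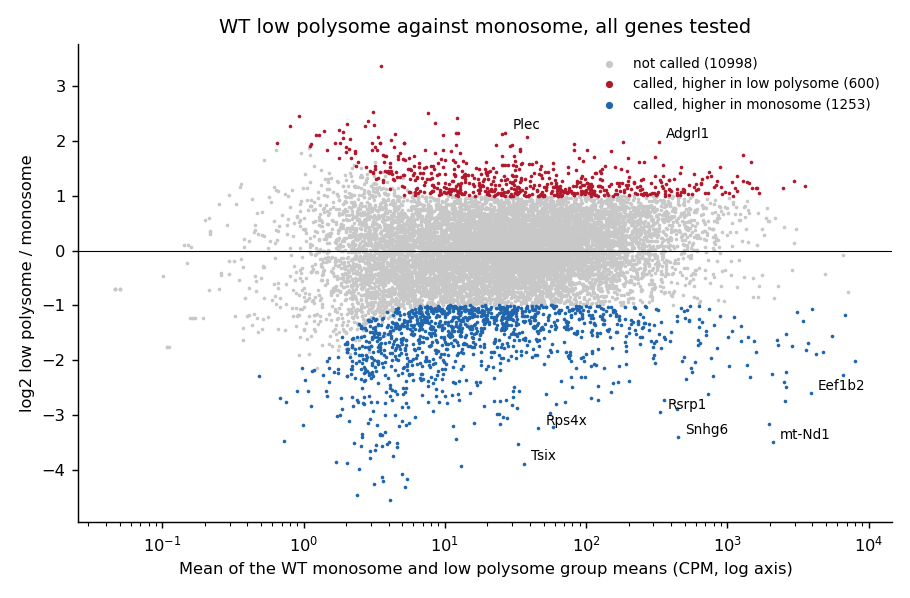
Each point is a gene, with its mean level in the WT monosome and low polysome libraries in CPM on a log axis and its log2 low polysome to monosome ratio on the vertical axis. The 600 called genes on the low polysome side reach less far from 0 than many of the 1253 on the monosome side, and 10998 genes were not called.

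The monosome side of the comparison went further than the low polysome side. The 12 largest called differences toward monosomes ran from -3.90 to -2.77 on the log2 scale, whereas the 12 largest toward low polysomes ran from 1.83 to 2.15. These 24 genes had a mean of 50 or more counts over the 6 libraries, the same sign in the 3 gradients and no overlap between fractions. They are of different kinds: of the 12 on the low polysome side all code for proteins and 11 of them have a coding sequence (CDS) of 3564 nt or more, whereas the 12 on the monosome side include noncoding RNAs, mitochondrial messages and ribosomal protein messages.

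**Figure D2:**
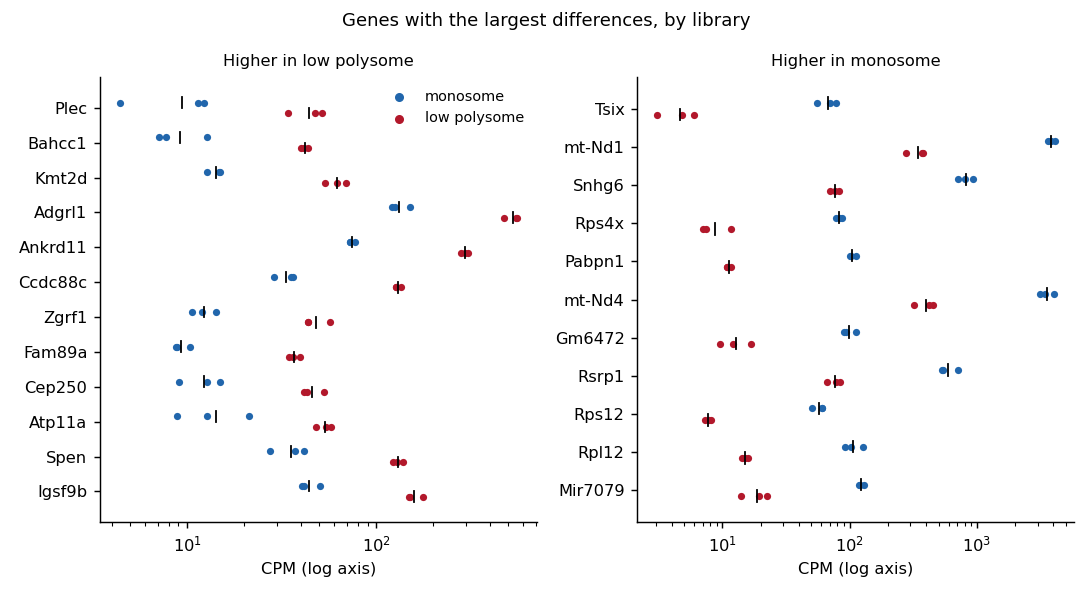
Every library of 23 named genes is shown in CPM on a log axis, monosomes in blue and low polysomes in red, with a bar at the mean of each 3. The left panel holds the 12 genes on the low polysome side, from Plec to Igsf9b, and the right panel 11 on the monosome side, from Tsix to Mir7079; no gene's fractions overlap.

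The sequences that follow show the smallest coding messages of the comparison, because at this size the CDS alone leaves room for few ribosomes and yet single messages were called on both sides. They were chosen after their values were seen, out of 87 genes with a CDS of up to 240 nt and a mean count of 50 or more, of which 3 were called higher and 5 lower in low polysomes, against 4.67% and 9.75% of all genes tested. The CDS of each is given 5′ to 3′ from GENCODE M21 (GRCm38), with the start and stop codons in capitals.
Rpl41: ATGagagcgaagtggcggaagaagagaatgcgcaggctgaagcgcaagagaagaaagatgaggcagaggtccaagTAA
Ost4: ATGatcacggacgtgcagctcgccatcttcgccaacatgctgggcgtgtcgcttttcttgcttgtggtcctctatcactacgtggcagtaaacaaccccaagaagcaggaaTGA
Cox7c: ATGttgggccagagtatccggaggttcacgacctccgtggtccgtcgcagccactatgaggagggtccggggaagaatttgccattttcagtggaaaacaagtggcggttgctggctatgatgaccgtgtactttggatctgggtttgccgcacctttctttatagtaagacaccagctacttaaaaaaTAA
Nop10: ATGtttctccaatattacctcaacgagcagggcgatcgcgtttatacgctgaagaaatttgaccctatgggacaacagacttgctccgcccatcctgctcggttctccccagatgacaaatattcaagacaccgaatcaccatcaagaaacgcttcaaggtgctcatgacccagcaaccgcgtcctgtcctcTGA
Hilpda: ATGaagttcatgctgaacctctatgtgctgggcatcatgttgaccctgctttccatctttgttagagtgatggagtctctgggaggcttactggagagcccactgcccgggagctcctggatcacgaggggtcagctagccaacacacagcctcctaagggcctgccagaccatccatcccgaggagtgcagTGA

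Rpl41 (chr10:128548114-128549305, minus strand), a protein of the large ribosomal subunit, has the shortest CDS of the genes tested, 78 nt for 25 residues. Its level was 1936, 1637 and 1879 CPM in the 3 monosome libraries and 674, 605 and 833 CPM in the low polysome libraries. The log2 difference was -1.38 (SE 0.13, adjusted p = 7.68e-12 by limma-voom). Ost4 (chr5:30905885-30907788, minus strand), the smallest subunit of the oligosaccharyltransferase that adds sugar chains to new proteins, has a CDS of 114 nt and went from 210.3, 166 and 192 to 68.4, 63.3 and 33.7 CPM, a log2 difference of -1.80 (SE 0.15, adjusted p = 1e-13). For both genes every monosome library lay above every low polysome library.

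Cox7c and Nop10 differ by 3 nt in coding length and were on opposite sides. Cox7c (chr13:86044816-86046904, minus strand), a subunit of cytochrome c oxidase with a CDS of 192 nt, was at 331, 280.1 and 262 CPM in monosomes and 117, 121 and 89.1 CPM in low polysomes (log2 difference -1.42, SE 0.13, adjusted p = 4.56e-12). Nop10 (chr2:112261926-112263269, plus strand), a core protein of the box H/ACA ribonucleoproteins that modify ribosomal RNA, has a CDS of 195 nt and was at 704, 654 and 642 CPM in monosomes and 1394, 1428 and 1304 CPM in low polysomes (log2 difference 1.04, SE 0.10, adjusted p = 1.81e-12). Hilpda, a lipid droplet protein with the same CDS length as Nop10, went from 135, 85.8 and 91.1 to 228, 216 and 176 CPM (log2 difference 1.0, SE 0.14, adjusted p = 4.5e-08). Of the 87, Ost4 was the lowest and Nop10 the highest, and the others lay between them, among them the actin-binding thymosin messages Tmsb10 at -0.13 and Tmsb4x at -0.10, neither of which passed the test.

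Across the 11763 protein-coding genes with a CDS in the annotation, the median low polysome to monosome ratio was higher in the shortest and the longest deciles of coding lengths than in those between. When the genes were split into deciles by CDS length, the median log2 difference was 0.33 in the shortest decile (78 to 525 nt), 0.25 in the next (528 to 735 nt) and 0.04 in the third. It was lowest in the eighth (1956 to 2463 nt), at -0.22, and highest in the longest decile (3417 nt and more), at 0.41. In each of the 3 gradients the outer deciles were above the sixth, seventh and eighth, and the lowest median was in the eighth for the first gradient and in the seventh for the others. The gradient medians were 0.33, 0.33 and 0.39 in the shortest decile, -0.20, -0.17 and -0.14 in the eighth and 0.39, 0.40 and 0.45 in the longest.

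The calls moved in the same way. In the longest decile 177 of 1177 genes (15.0%) were called higher in low polysomes and 21 (1.78%) lower, against the 4.67% and 9.75% of all genes tested. In the seventh decile 14 genes were called higher and 126 lower (10.7%). The 6 genes with a CDS of up to 150 nt had a median of -0.71, with 3 called lower and none higher. These are few genes. The 249 with up to 300 nt had a median of 0.25, above that of all genes (-0.03), with 13 higher and 14 lower. Among the 288 genes with a CDS over 6000 nt, 107 (37.2%) were called higher and 3 lower, with a median of 0.86. Spearman's rho between the CDS length and the log2 difference was -0.07 over all 11763 genes, -0.26 over the 9413 in the first 8 deciles and 0.45 over the 2350 in the last 2; genes share the libraries' depth and these values are a description. Restricting the genes to those with a mean of 200 counts or more left the shape in place, with 0.49 in the shortest decile (485 genes), -0.15 in the eighth (179 genes) and 0.58 in the longest (149 genes).

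**Figure D3:**
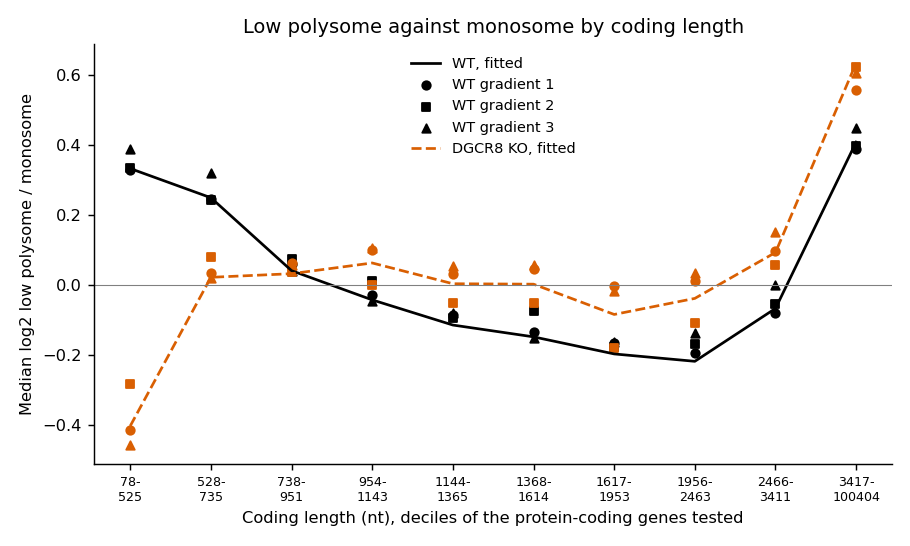
The median log2 low polysome to monosome ratio is plotted for each decile of the protein-coding genes by CDS length, with the fitted WT medians as a solid line, the 3 WT gradients as black symbols and the KO as an orange dashed line with its 3 gradients. In WT the line falls from 0.33 in the shortest decile to -0.22 in the eighth and ends at 0.41, whereas in the KO the shortest decile lies at -0.40.

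For the other transcript features Spearman's rho with the ratio was 0.12 or less in size, over all coding genes. It was 0.03 for the length of the 5′ untranslated region, 0.07 for that of the 3′ untranslated region, 0.12 for the G+C content of the 5′ untranslated region and -0.01 for that of the CDS. The number of ATG triplets upstream of the start codon did not order the genes: the median log2 difference was -0.01 with none (5597 genes), 0.04 with 1 (2614 genes), 0.03 with 2 (1255 genes), 0.02 with 3 (786 genes) and 0.03 with 4 or more (1352 genes).

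Very long messages led the low polysome side. Kmt2d (chr15:98831669-98871204), a histone H3 lysine 4 methyltransferase with a CDS of 16767 nt, was at 12.7, 14.8 and 15.0 CPM in the monosome libraries and 62.4, 53.6 and 69.2 CPM in the low polysome libraries, 4.23-fold higher there (log2 difference 2.08, SE 0.22, adjusted p = 1.89e-10 by limma-voom). Ankrd11 (chr8:122883822-123042277), a chromatin regulator, went from 77.7, 72.3 and 72.5 to 295, 280.4 and 305 CPM (log2 difference 1.98, SE 0.13, adjusted p = 3.49e-17). Spen, a transcriptional corepressor with a CDS of 10932 nt, went from 41.5, 37.4 and 27.4 to 123, 128 and 139 CPM (log2 difference 1.85, SE 0.16, adjusted p = 2.8e-13). In each of the 3 the lowest low polysome library was over any monosome library by a wide margin.

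Of the genes in this group, Adgrl1 (chr8:83900105-83941954), an adhesion G protein-coupled receptor with a CDS of 4401 nt, was the most abundant. It was at 150, 121 and 126 CPM in monosomes and 557, 546 and 475 CPM in low polysomes, a log2 difference of 1.99 (SE 0.11, adjusted p = 4.06e-19). Plec, which codes for the cytoskeletal linker plectin, had the largest difference, 2.15 (SE 0.29, adjusted p = 3.72e-08), from 11.4, 12.3 and 4.42 CPM in monosomes to 47.2, 34.0 and 51.8 CPM in low polysomes. The third monosome library was the lowest, and the spread of its monosome values was wider than for Ankrd11. Bahcc1 (2.13), Ccdc88c (1.95), Zgrf1 (1.93), the centrosome protein Cep250 (1.90), the phospholipid flippase Atp11a (1.86) and the cell adhesion protein Igsf9b (1.83) made up the rest of the 12 together with Fam89a.

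Fam89a was the exception in length among the 12, with a CDS of 528 nt. Its level was 8.71, 10.3 and 8.84 CPM in monosomes and 36.3, 34.6 and 39.7 CPM in low polysomes (log2 difference 1.93, SE 0.27, adjusted p = 7.17e-08). In the KO, the libraries of which are separate, the difference was -0.14, and the test of KO minus WT gave -2.07 (SE 0.32, adjusted p = 4.58e-06).

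The molecular motors, a list of long messages, held both directions. Of 58 kinesin, dynein and myosin genes tested, 7 (12.1%) were called higher in low polysomes and 3 (5.17%) lower. The shares of all genes were 4.67% and 9.75%, and the median of the motors was 0.09. Myo18a, an unconventional myosin, went from 39.5, 34.2 and 40.7 to 108, 102 and 122 CPM (log2 difference 1.52, SE 0.15, adjusted p = 1.36e-11), and Myh9, the heavy chain of nonmuscle myosin, from 90.4, 56.1 and 57.5 to 210.1, 154 and 215 CPM (1.49, SE 0.14, adjusted p = 4.38e-12). The kinesins Kif5a (-1.35, SE 0.17, adjusted p = 6.29e-09) and Kif22 (-1.09, SE 0.16, adjusted p = 4.86e-07) were lower. Without the second WT gradient the difference of Kif22 missed the fold threshold, by less than 0.01 on the log2 scale.

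Of the 29 gene lists, the cytosolic ribosomal proteins had the most messages called on the monosome side, though not the largest share of their members. Of 78 tested, 67 were called lower in low polysomes and none higher, with a median log2 difference of -1.63 and gradient medians of -1.59, -1.62 and -1.57, beside 9.75% of all genes called lower and a median of -0.03. Together they made up 11.7, 11.5 and 12.5% of the TMM-scaled WT monosome libraries, 4.18, 4.01 and 4.40% in the low polysome libraries and 2.78, 2.46 and 2.48% in the high polysome libraries. The 3 ranges do not overlap. Many of these genes have processed pseudogenes with nearly the same sequence, and only uniquely aligned reads were counted, so the level of a single gene is uncertain.

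Their coding lengths are those of the group with the opposite sign. The median CDS of the ribosomal protein genes was 456 nt. The 1130 other coding genes between the quartiles of their lengths (378 to 615 nt) had a median log2 difference of 0.34. Of these, 107 (9.47%) were called higher and 38 (3.36%) lower, against 4.67% and 9.75% of all genes tested. Among the 655 of those that also had a mean count at or above the lower quartile of the ribosomal protein genes, the median was 0.49, with 82 (12.5%) higher and 11 (1.68%) lower.

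Rps4x, a protein of the small subunit, was at 83.7, 78.1 and 87.5 CPM in monosomes and 7.40, 6.97 and 11.7 CPM in low polysomes (log2 difference -3.25, SE 0.23, adjusted p = 2.45e-16). Rps12 went from 60.3, 51.0 and 61.0 to 8.11, 7.81 and 7.22 CPM (-2.87, SE 0.23, adjusted p = 3.01e-14) and Rpl12 from 91.8, 103 and 126 to 15.2, 14.2 and 16 CPM (-2.81, SE 0.19, adjusted p = 1.04e-16). At the other end of the list, Rps25 was at 799, 756 and 805 CPM in monosomes and 824, 824 and 929 CPM in low polysomes (0.12, SE 0.10, adjusted p = 0.317). Rps25 had a mean of 1942 counts and Rps4x of 71.7. The range of the list ran from -3.25 to 0.12. Gm6472, annotated as a transcribed pseudogene, was also among the 12 on the monosome side, at 113, 94.2 and 90.2 CPM in monosomes and 12, 9.48 and 16.9 CPM in low polysomes (-2.97, SE 0.21, adjusted p = 2.06e-16); it overlaps a pseudogene of Rpl7a on the same strand.

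Vertebrate ribosomal protein and elongation factor messages are known to begin with a C and a run of pyrimidines, through which growth signals control their translation. The 30 bases around the annotated start site (15 before and 15 from it on, RefSeq, GRCm38.p6) were searched on the sense strand for a run of 8 or more bases that are each C or T. Such a run was found in 42.1% of 57 ribosomal protein genes with a matched promoter, in 12% of all 32851 promoters in the table and in 11.9% of 9315 tested coding genes. Within the ribosomal protein genes the median log2 difference was -1.61 with a run and -1.64 without one, and annotated start sites can lie some bases from those that the cells use. Among the translation factors it was -1.26 with a run (14.3% of 42 genes) and -0.24 without one, among the respiratory chain subunits -0.50 (12.3% of 65) and 0.47, among the mitochondrial ribosomal proteins -0.21 (13.2% of 68) and 0.19, among the snoRNA hosts -1.47 (29.4% of 17) and -2.02, and among all tested coding genes -0.03 and 0.02. These few genes with a run were not tested against the rest, and a run before the start need not be part of the message. The windows of Rack1 (-2.28) and Rpl34 (-1.09), both called lower, are shown with the longest run in capitals, because their RefSeq and GENCODE starts are the same and the run crosses the start.
Rack1, chr11:48800345-48800374, plus strand: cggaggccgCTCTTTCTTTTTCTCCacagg
Rpl34, chr3:130730323-130730352, minus strand: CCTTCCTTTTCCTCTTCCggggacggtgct

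The translation factors split. Of 54 initiation and elongation factor messages, 16 (29.6%) were called lower in low polysomes and 2 (3.70%) higher, against 9.75% and 4.67% of all genes. Their median was -0.42. Eef1b2, a subunit of the exchange factor that recharges the elongation factor eEF1A, had the largest difference of the well measured members: 6396, 6551 and 7092 CPM in monosomes and 1056, 998 and 1241 CPM in low polysomes (-2.61, SE 0.10, adjusted p = 2.26e-25). Eef1a1, the elongation factor itself, went from 1201, 1178 and 1581 to 251, 208 and 359 CPM (-2.30, SE 0.11, adjusted p = 1.7e-21). The called members on this side also included Eef2 (-1.88), Eef1g (-2.03), the poly(A)-binding protein Pabpc1 (-1.85), Eif4b (-1.78) and the eIF3 subunits Eif3f (-2.14) and Eif3h (-1.73).

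On the other side were Eif5a, a factor that helps ribosomes past difficult peptide bonds, and Eif2s2, the beta subunit of the factor that brings the initiator tRNA. Eif5a went from 500.3, 530.5 and 445 CPM in monosomes to 1222, 1215 and 1148 CPM in low polysomes (1.28, SE 0.11, adjusted p = 6.95e-14), and Eif2s2 from 337, 399 and 362 to 674, 800.1 and 782 CPM (1.03, SE 0.11, adjusted p = 5.28e-11). For both, all low polysome libraries lay above all monosome libraries.

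Other groups of short nuclear-encoded messages had medians above 0. Of 80 respiratory chain subunits, 7 (8.75%) were called higher in low polysomes and 3 (3.75%) lower, against 4.67% and 9.75% of all genes tested. The median of these subunits was 0.40, with gradient medians of 0.39, 0.38 and 0.57. Uqcrb, a subunit of complex III, went from 521, 498 and 471 to 1109, 1154 and 1076 CPM (1.16, SE 0.10, adjusted p = 8.81e-13), and Ndufa11, a subunit of complex I, from 320.1, 295 and 245 to 654, 608 and 536 CPM (1.06, SE 0.11, adjusted p = 9.17e-11). Their list summed to 3.37, 3.34 and 3.03% of the TMM-scaled library in monosomes, 4.52, 4.58 and 4.30% in low polysomes and 2.51, 2.41 and 2.40% in high polysomes, so low polysomes held the largest share. Of 33 mitochondrial import subunits 5 were called higher and 2 lower (median 0.32), among them Timm17b (1.49, SE 0.12, adjusted p = 5.19e-14) and Chchd2, which went from 1526, 1626 and 1468 to 3788, 3533 and 2958 CPM (1.15, SE 0.09, adjusted p = 3.94e-14). Of 77 mitochondrial ribosomal proteins 2 (2.60%) were called in each direction, with a median of 0.19.

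Replication-dependent histone genes, whose main transcripts carry no poly(A) tail, were seen here only through what is polyadenylated. Of 32 tested, 8 (25%) were called higher in low polysomes and none lower, against 4.67% and 9.75% of all genes. Their median was 0.79, with gradient medians of 0.75, 0.83 and 1.23. Hist1h4d, a histone H4 gene, was at 58.9, 35.5 and 59.2 CPM in monosomes and 129.8, 121 and 283 CPM in low polysomes (1.72, SE 0.21, adjusted p = 3.51e-09). The third low polysome library was the highest. The linker histone gene Hist1h1e was at 102, 109.7 and 144 CPM in monosomes and 139.6, 108 and 178 CPM in low polysomes (0.25, SE 0.16, adjusted p = 0.205), and its fractions overlapped. Histone genes of 1 family are nearly identical, so their single counts are uncertain, and 11 of the 32 had a mean of 50 or more counts.

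The spliceosome and its regulators went apart. Of 27 Sm and LSm proteins, 4 (14.8%) were called higher and 1 (3.70%) lower, against 4.67% and 9.75% of all genes. Their median was 0.44. Snrpd3, a subunit of the Sm ring, was among the most abundant genes of the low polysome side, at 741, 759.6 and 682 CPM in monosomes and 2310.1, 2100.4 and 2289 CPM in low polysomes (1.62, SE 0.10, adjusted p = 6.91e-18). Of 12 SR proteins, which bind exons and promote splicing, 5 (41.7%) were called lower and 1 (8.33%) higher, with a median of -0.80. Srsf5 went from 236, 189 and 236 to 39.5, 58.3 and 49.4 CPM (-2.15, SE 0.14, adjusted p = 7.07e-17) and Srsf10 from 216, 262 and 229.9 to 64.9, 72.8 and 69.2 CPM (-1.78, SE 0.12, adjusted p = 2.15e-16). Srsf9 was the called member in the other direction, from 267, 237 and 246 to 709, 738 and 578 CPM (1.43, SE 0.11, adjusted p = 1.83e-14).

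Coding genes outside the lists also stood on the monosome side. Pabpn1, the nuclear poly(A)-binding protein, was at 102, 112 and 99.9 CPM in monosomes and 10.9, 10.9 and 11.7 CPM in low polysomes (-3.22, SE 0.20, adjusted p = 7.02e-18); another gene overlaps it on the same strand. Rsrp1, an arginine- and serine-rich protein, went from 531, 544 and 708 to 66.6, 78.7 and 83.4 CPM (-2.96, SE 0.14, adjusted p = 2.41e-22). In both genes the highest low polysome library was several times below the lowest monosome library.

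The 7 tested messages made inside mitochondria were all called lower in low polysomes. They are translated by mitochondrial ribosomes, and their sedimentation need not reflect cytosolic ribosomes. Their median was -2.62, with gradient medians of -2.71, -2.63 and -2.69, and they fell from 2.02, 1.95 and 1.79% of the TMM-scaled library in monosomes to 0.312, 0.292 and 0.311% in low polysomes. mt-Nd1, a subunit of complex I, was at 4086, 3802 and 3655 CPM in monosomes and 277, 379 and 369 CPM in low polysomes, 11.3-fold lower (-3.50, SE 0.11, adjusted p = 3.34e-28). mt-Nd5 had the smallest difference, from 1194, 1392 and 1118 to 633, 485 and 506 CPM (-1.20, SE 0.11, adjusted p = 8.81e-13), and without the second WT gradient it missed the fold threshold, at -0.96.

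Noncoding RNA was the other large part of the monosome side. Of 494 long noncoding RNA genes tested, 170 (34.4%) were called lower in low polysomes and 9 (1.82%) higher, with a median of -0.74, against 838 lower (7.12%) and 563 higher (4.78%) of 11766 protein-coding genes, with a median of 0.01. Pseudogenes had 179 of 360 lower and 4 higher (median -1.17), snoRNA genes 28 of 41 lower and none higher (median -2.08), and primary microRNA genes 14 of 19 lower and none higher (median -1.91). Entries of the last 2 kinds lie inside host transcripts on the same strand, and at 3′ ends of polyadenylated RNA their reads cannot be told apart from those of unspliced or other forms of the host. Mir7079 (-2.77, SE 0.18, adjusted p = 1.33e-17), at 129.9, 121 and 118 CPM in monosomes and 19.4, 13.9 and 22.3 CPM in low polysomes, is such an entry: it lies within Rpl13. Most genes of these classes had few counts. The median of the mean counts was 11.8 for long noncoding RNAs, 9.67 for pseudogenes, 8.17 for snoRNAs and 18.5 for primary microRNAs. For protein-coding genes it was 61.8. A gene could pass the filter through 3 monosome libraries alone, and what this did to the class values was not tested.

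Host genes of small nucleolar RNAs, whose spliced transcripts code for no known protein, had 19 of 20 tested members called lower in low polysomes and none higher. Their median was -1.96, with gradient medians of -2.04, -1.94 and -1.95, and their sum went from 0.918, 0.982 and 1.07% of the TMM-scaled library in monosomes to 0.245, 0.263 and 0.268% in low polysomes and 0.0592, 0.0690 and 0.0562% in high polysomes. Snhg6 (chr1:9941959-9944118, minus strand) was at 805, 716 and 931 CPM in monosomes and 69.8, 82.0 and 77.1 CPM in low polysomes (-3.41, SE 0.13, adjusted p = 2.26e-25). Snhg12 went from 273, 254 and 318 to 46.9, 49.4 and 63.2 CPM (-2.41, SE 0.14, adjusted p = 1.6e-18) and Snhg3 from 472, 432 and 397 to 195, 179 and 134 CPM (-1.37, SE 0.12, adjusted p = 6.22e-13). Gas5 (-2.09) and Zfas1 (-1.96) were of the same order.

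Among 26 tested nuclear and stem cell long noncoding RNAs, 12 were called lower and none higher, with a median of -0.94. Tsix (chrX:103431517-103484957, plus strand), the antisense transcript of Xist, had the largest difference of the named genes, from 54.9, 78.1 and 69.8 CPM in monosomes to 5.99, 3.07 and 4.82 CPM in low polysomes (-3.90, SE 0.29, adjusted p = 3.9e-15). Malat1 (-2.41) and Neat1 (-2.10), which are known for their place in the nucleus, and the imprinted Meg3 (-1.86) were called as well. Kcnq1ot1, a long imprinted antisense RNA, was at 24.1, 32.9 and 23.9 CPM in monosomes and 30.3, 44.4 and 35.8 CPM in low polysomes (0.45, SE 0.22, adjusted p = 0.0969), and Rian at 39.5, 49.0 and 52.2 CPM in monosomes and 55.7, 48.8 and 56.3 CPM in low polysomes (0.21, SE 0.17, adjusted p = 0.366), so the list does not move as 1 body.

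**Figure D4:**
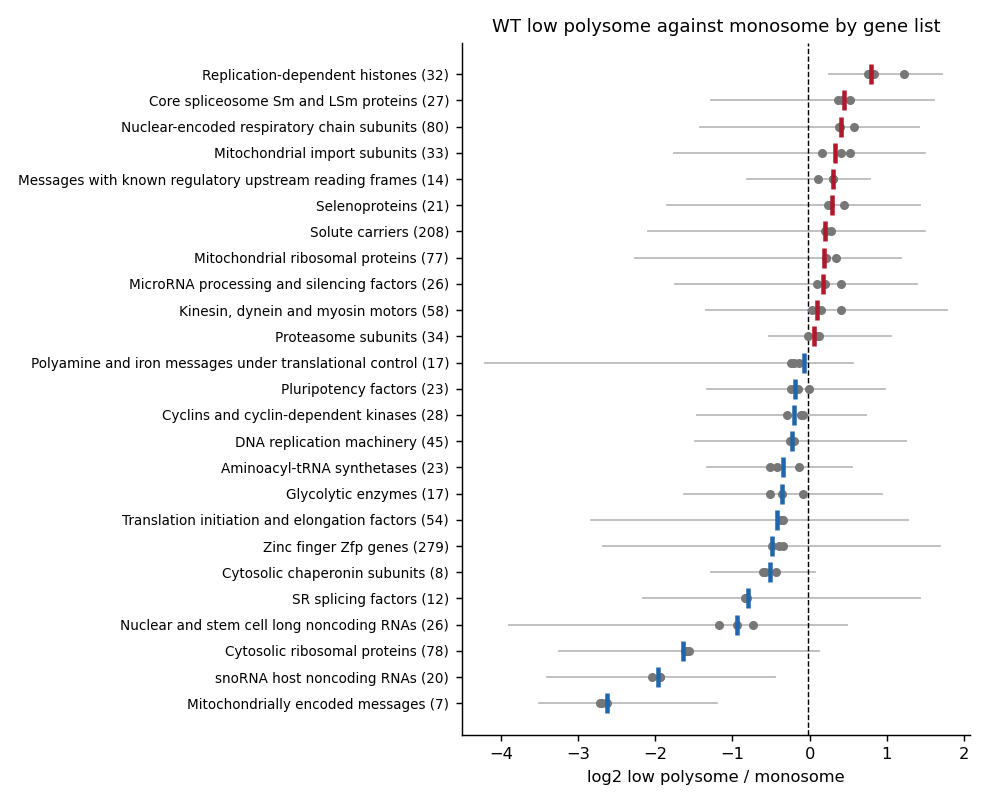
For the 25 lists with 7 or more tested genes, the coloured bar is the median log2 low polysome to monosome ratio in WT, the grey points are the medians of the 3 gradients and the line runs from the lowest to the highest member; numbers of tested genes are in brackets and the dashed line is the median of all genes, -0.03. Mitochondrially encoded messages (-2.62), snoRNA host RNAs (-1.96) and cytosolic ribosomal proteins (-1.63) lie apart from the other lists, and the histones (0.79) are at the other end.

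Messages known for translational control were mostly not called, which also holds for all genes tested (14.4% called, 4.67% higher and 9.75% lower). Of 14 with regulatory upstream reading frames none was called in either direction by limma-voom, edgeR or DESeq2, although 8 had an unadjusted p under 0.05 and 7 an adjusted one. Of all 12851 genes, 5188 had an adjusted p under 0.05 by limma-voom. A list of 14 is too short for the absence of calls to set it apart. The median of the 14 was 0.30. Atf4, the transcription factor of the integrated stress response, was at 913, 959 and 984 CPM in monosomes and 1658, 1476 and 1427 CPM in low polysomes, which passed the adjusted p but not the fold threshold (0.67, SE 0.10, adjusted p = 2.39e-07); Ddit3 was at 75, 62.6 and 141 CPM in monosomes and 40.9, 48.0 and 65.3 CPM in low polysomes (-0.81, SE 0.16, adjusted p = 9.08e-05). Of 17 polyamine and iron messages 3 were called lower and none higher, with a median of -0.07. Fth1, the ferritin heavy chain, whose 5′ end carries an iron-responsive element, went from 478, 358 and 468 to 203, 160.4 and 257 CPM (-1.08, SE 0.11, adjusted p = 6.45e-11), and without the second WT gradient it missed the fold threshold, at -0.98. Oaz2, an antizyme read through a frameshift, was at 170.1, 146 and 189 CPM in monosomes and 257, 235 and 249 CPM in low polysomes (0.56, SE 0.12, adjusted p = 0.000196).

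Of 21 selenoproteins, 3 (14.3%) were called higher and 1 (4.76%) lower, against 4.67% and 9.75% of all genes. Their median was 0.29. Sephs2, which makes the selenium donor and is itself a selenoprotein, went from 76.3, 62.0 and 71.6 to 197, 192 and 173 CPM (1.42, SE 0.13, adjusted p = 1.78e-12), and Dio3, a deiodinase of thyroid hormone, from 35.5, 26.5 and 19.5 to 95.9, 72.8 and 57.2 CPM (1.43, SE 0.18, adjusted p = 1.32e-08). Gpx4, a peroxidase that protects lipids, was at 161, 132 and 128 CPM in monosomes and 94.5, 113 and 143 CPM in low polysomes (-0.28, SE 0.16, adjusted p = 0.168), with fractions that overlapped.

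Lists of housekeeping enzymes and complexes had medians between the lower quartile of all genes and a little over their median, with 1 list just under that quartile. Of all genes tested, 4.67% were called higher and 9.75% lower. Of 34 proteasome subunits 1 was called higher, Psma7 (1.06, SE 0.10, adjusted p = 6.11e-12), and none lower (median 0.06). Of 23 aminoacyl-tRNA synthetases 1 was called lower, Qars (-1.33, SE 0.11, adjusted p = 5.17e-14), and none higher (median -0.34). Of the 8 subunits of the cytosolic chaperonin 2 were called lower, Cct2 (-1.28) and Tcp1 (-1.15), and none higher. Their median was -0.52, and in 7 of them all low polysome libraries lay below all monosome libraries, against 24.6% of all genes tested. Cct7 was at 0.07 (SE 0.10, adjusted p = 0.619), so subunits of 1 complex differed in their values. Of 17 glycolytic enzymes 4 were lower and none higher (median -0.36), all 4 with a mean under 50 counts. Of 45 DNA replication genes 2 were lower and 1 higher (median -0.23). Cdt1, which loads the replicative helicase, went from 569.9, 585 and 616 to 212, 218 and 199 CPM (-1.49, SE 0.12, adjusted p = 1.5e-14), and Pole, a polymerase subunit with a CDS of 6852 nt, from 16.7, 16.8 and 20.3 to 40.9, 38.8 and 49.7 CPM (1.25, SE 0.21, adjusted p = 5.41e-06). The difference of Mcm3, -1.0, was at the fold threshold and missed it in 6 of the alternatives tried.

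Of the large gene families, the zinc finger genes lay toward monosomes, with a median near the lower quartile of all genes (-0.51). Of 279 Zfp zinc finger genes 50 (17.9%) were called lower and 2 (0.717%) higher, with a median of -0.49, against 9.75% and 4.67% of all genes. Many had few counts: 82 of the 279 had a mean of 50 or more. The median of their mean counts was 22.2, against 61.8 for all protein-coding genes. Zfp57, which guards imprinted loci, went from 189.5, 214 and 217 to 31.4, 39.1 and 41.8 CPM (-2.47, SE 0.15, adjusted p = 9.22e-19), and Zfp292, with a CDS of 8097 nt, from 39.5, 58.1 and 49.5 to 104, 116 and 92.1 CPM (1.10, SE 0.15, adjusted p = 5.12e-08). Of 208 solute carriers 11 were higher and 13 lower (median 0.21), with Slc39a11, a zinc transporter, at 1.30 (SE 0.12, adjusted p = 5.78e-12) and Slc25a28, a mitochondrial iron carrier, at -2.09 (SE 0.14, adjusted p = 8.19e-17).

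The genes that define the cell were mostly not called, which also holds for all genes tested (4.67% called higher and 9.75% lower). Of 23 pluripotency factors 3 were lower in low polysomes, Dppa4 (-1.33, SE 0.13, adjusted p = 6.06e-12), Nr0b1 (-1.08) and Prdm14 (-1.05), and none was higher (median -0.19). Pou5f1, the factor OCT4, was at 33.5, 21.9 and 38.0 CPM in monosomes and 57.8, 50.2 and 73.8 CPM in low polysomes (0.98, SE 0.19, adjusted p = 5.66e-05); it missed the fold threshold, and passed it with total-count scaling, at 1.03. Of 28 cyclins, cyclin-dependent kinases and inhibitors 5 were lower and none higher (median -0.20), with Cdk2 from 309, 314 and 351 to 116, 128 and 114 CPM (-1.44, SE 0.13, adjusted p = 1.81e-12) and the inhibitor Cdkn1b from 122, 109.7 and 107 to 37.7, 41.3 and 48.2 CPM (-1.42, SE 0.14, adjusted p = 1.26e-11).

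Of 26 microRNA processing and silencing factors, 3 were called higher and 1 lower, against 4.67% and 9.75% of all genes, with a median of 0.17. Ago2, the slicing Argonaute, went from 254, 236 and 248 to 484, 517 and 602 CPM (1.11, SE 0.11, adjusted p = 7.82e-12), and Tnrc6c, its scaffold partner, from 21.4, 27.1 and 31.8 to 52.2, 49.4 and 64.7 CPM (1.03, SE 0.19, adjusted p = 1.98e-05). Dgcr8 was at 76.3, 68.4 and 79.6 CPM in monosomes and 51.8, 70.0 and 66.5 CPM in low polysomes (-0.25, SE 0.16, adjusted p = 0.218), and the RNA helicase Ddx6 at 176, 194 and 181 CPM in monosomes and 187, 194 and 203 CPM in low polysomes (0.08, SE 0.11, adjusted p = 0.602). Neither passed the test, and the fractions of both overlapped. In the KO libraries Dgcr8 was at 47.3, 52.0 and 51.3 CPM in monosomes and 39.0, 58.6 and 42.0 CPM in low polysomes, and a read at the 3′ end does not check a deletion upstream of it.

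The same comparison in DGCR8 KO cells rests on 6 other libraries. There 835 genes were higher in low polysomes (6.5% of those tested) and 1296 lower (10.1%). The log2 differences of the 2 genotypes had a Spearman's rho of 0.62 across the 12851 genes, as a description. Of the genes higher in WT, 265 were also higher in the KO (44.2% of the WT list and 31.7% of the KO list), and of those lower in WT, 658 were lower in the KO (52.5% and 50.8%). One gene higher in WT was lower in the KO, and 4 lower in WT were higher in the KO.

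The test of the difference between genotypes called 200 genes with a larger ratio in the KO (1.56%) and 495 with a smaller one (3.85%), 695 (5.41%) in all. Without the second WT gradient these were 104 and 604. With library sizes scaled by total counts they were 107 and 695, and the median of all genes for KO minus WT moved by -0.13 on the log2 scale. Of the 495, 304 were in the shortest decile of coding lengths, 25.7% of the genes there, where the median KO minus WT difference was -0.73 against 0.07 for all genes. The median in that decile was 0.33 in WT and -0.40 in the KO, with KO gradient medians of -0.41, -0.28 and -0.46, whereas in the longest decile it was 0.41 in WT and 0.63 in the KO. The sources used here do not say whether the gradients of both genotypes were cut into fractions at the same positions, and a ratio between fractions depends on the cut, so a difference in the cut and one between genotypes cannot be told apart here.

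Lists of short messages had the most such genes. Of all genes tested, 3.85% had a smaller ratio in the KO and 1.56% a larger one. In the whole shortest decile of coding lengths 25.7% had a smaller one, so a smaller ratio was not particular to these lists. Of the 80 respiratory chain subunits 24 had a smaller ratio in the KO by the test and 4 a larger one, and of the 33 mitochondrial import subunits 13 had a smaller ratio and none a larger one. The median of the import list was 0.32 in WT and -0.39 in the KO. Of the 78 ribosomal protein genes 19 had a larger ratio in the KO and 1 a smaller one, and their median was -1.63 in WT and -0.98 in the KO. Their summed share of the monosome libraries was 11.7, 11.5 and 12.5% in WT and 4.26, 4.29 and 4.78% in the KO. Atf4 was at -1.0 in the KO against 0.67 in WT (KO minus WT -1.67, SE 0.15, adjusted p = 1.69e-11), and Eef1b2 at -0.86 against -2.61 (1.75, SE 0.15, adjusted p = 5.38e-12).

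**Figure D5:**
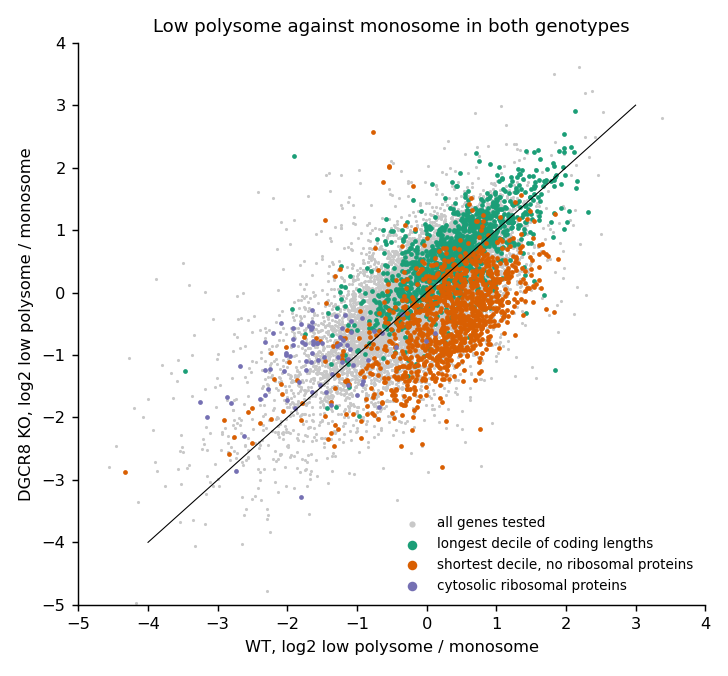
Each point is a gene, with its log2 low polysome to monosome ratio in WT on the horizontal axis and in the DGCR8 KO on the vertical axis; the line marks equal values. The shortest decile of coding genes without ribosomal proteins (orange) lies mostly below the line, with medians of 0.36 in WT and -0.36 in the KO, the longest decile (green) has medians of 0.41 and 0.63, and the ribosomal proteins (purple) have -1.63 and -0.98.

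H19, an imprinted noncoding RNA that holds the hairpin of a microRNA, Mir675, was lower in low polysomes in WT, whereas its KO gradients differed in sign. In WT it was at 231, 288 and 269 CPM in monosomes and 45.5, 47.4 and 53.9 CPM in low polysomes (-2.42, SE 0.29, adjusted p = 1.88e-09). In the KO it was at 10.0, 13.2 and 6.27 CPM in monosomes and 154, 4.17 and 6.31 CPM in low polysomes. The log2 ratios of the KO gradients were 3.85, -1.51 and 0.008, so the high KO value rests on the first low polysome library. The KO minus WT difference was 4.03 (SE 0.56, adjusted p = 4.52e-07), and 1.56 (SE 0.40, adjusted p = 0.00341) without the first KO gradient.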

How the data were processed

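The deposited values were raw counts of reads per gene. Per the study's methods and processing notes, the authors trimmed reads with cutadapt 1.14, aligned them to mm10 with STAR 2.5.3a, kept uniquely aligned reads and counted them by strand with featureCounts 1.5.3 on GENCODE M14 basic without rRNA genes. No molecular identifiers were stated, so PCR copies count as reads. The deposited table also gives exonic lengths, another value the authors made, used only as annotation.

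Of 51467 genes (92 spike-in entries left out), 12851 reached 3 CPM in 3 or more libraries. They were fitted over all 18 libraries with limma-voom (limma 3.58.1, edgeR 4.0.16, R 4.3.3), TMM scaling, 6 group means and the gradient as a block (8 residual degrees of freedom); a call needed an adjusted p under 0.05 and a log2 difference over 1. CPM levels use the TMM factors. Ratios of 1 gradient use log2 CPM with a prior count of 2. The submitters describe all fractions of a sample as taken from its gradient. Deviations of same-numbered low polysome and monosome libraries from their fraction's mean correlated only weakly in WT, at 0.058 to 0.067. All other pairs were negative, which deviations from a mean bring about on balance, so those pairs are no added support for the pairing. With the gradient as a block, p-values measure how the differences between fractions vary from gradient to gradient, pooled over all 18 libraries. No source says that gradients came from separate cultures, so this need not be a spread between cultures. On simulated counts the fit was tested before use.

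Features came from GENCODE M21 (GRCm38), in which 51274 genes matched. Named genes are the 12 largest called differences per direction with a mean of 50 or more counts, 1 sign in all gradients and no overlap, the 2 highest and 2 lowest such members of each of 29 gene lists, and Dgcr8 and Ddx6. The members and lists were chosen with earlier results of these data known. Alternatives were DESeq2 1.42.0, edgeR, other scalings, filters and library sets. Results of some genes are not reported here.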

Additional observations from a re-analysis of the deposited data

Results flagged for a closer look

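Of the 24 genes with the largest differences in WT, 7 had a low polysome to monosome ratio that differed between DGCR8 KO and WT by the interaction test of limma-voom, against 5.41% of all genes tested. The 24 were chosen for their WT values, which also enter KO minus WT, so a value nearer 0 in the KO is partly built in. As KO minus WT on the log2 scale, Fam89a had -2.07 (adjusted p = 4.58e-06), Rps4x 1.5 (adjusted p = 0.00105), Gm6472 1.49 (adjusted p = 0.00138) and Rps12 1.19 (adjusted p = 0.00937), and these 4 were called in all 14 alternatives. Tsix had 1.18 (adjusted p = 0.0262), mt-Nd4 1.0 (adjusted p = 1.61e-06) and Rpl12 1.04 (adjusted p = 0.00642), and these calls depend on the processing. Tsix was not called in 7 of 14 alternatives, among them DESeq2 (1.10, adjusted p = 0.0688), no replicate block (1.05, adjusted p = 0.153), total counts (1.05, adjusted p = 0.0535) and without the second WT gradient (0.69, adjusted p = 0.367). mt-Nd4 was under the fold threshold in 9 of 14, with 0.80 to 1.16 over all of them and the lowest value without the first KO gradient. Rpl12 was not called in 7 of 14, with 0.91 to 1.19 over all of them and the lowest value with total counts. In the 6 besides Fam89a the ratio was below 0 in both genotypes. Groups of 3 libraries were not searched for single outlying values across all genes.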

How the results depend on the processing

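In WT the calls without the replicate block were 1816 (584 higher, 1232 lower), and of the 1853 calls 95.5% were also made there, 95.5% by edgeR, 88.5% by DESeq2 and 70.9% under a filter of 10 CPM, which tests fewer genes; no call changed sign under any alternative. Without a filter, 7824 of 25635 genes were called (917 higher, 6907 lower), and the median of all genes was -0.51; the cause was not tested. With no fold threshold there were 5188 WT calls (2538 higher, 2650 lower), 5958 in the KO (3072 and 2886) and 1837 for KO minus WT (770 and 1067). Genes with a larger ratio in the KO were 129 by DESeq2 and 107 with total counts, and 104 to 225 with 1 gradient left out, 104 of them without the second WT gradient. Leaving out each WT gradient gave 1642 to 1729 WT calls, 538 to 712 higher and 982 to 1166 lower, and 75.5 to 79.6% of the 1853 calls were also made there. Over the named genes, 1818 refits gave the same call, 13 lost it and 14 gained it. Over the medians of lists and length deciles, 171 refits stayed within 1 SD of the gradients and 57 did not. Monosome libraries have the smaller totals, and 105 called genes had 1 fraction at 3 counts or fewer throughout, so their fitted differences are no bounds.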

Other observations

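Within the long noncoding RNA class, 9 of 494 were higher in low polysomes, and of these 2 had a mean of 50 or more counts; they were looked up after their values were seen. Gm31659 was at 77.7, 83.9 and 55.7 CPM in the WT monosome libraries and 147, 164 and 157 CPM in the low polysome libraries (log2 difference 1.09, SE 0.15, adjusted p = 3.83e-08 by limma-voom). In the DGCR8 KO it was at 248, 227 and 262 CPM in monosomes and 112, 169 and 127 CPM in low polysomes (-0.86), and the KO minus WT difference was -1.96 (SE 0.19, adjusted p = 1.7e-10). Gdap10 went from 10.0, 17.4 and 12.4 to 20.4, 31.2 and 32.5 CPM in WT (1.02, SE 0.28, adjusted p = 0.00305) and had 1.40 in the KO. A separate class holds 147 entries that the annotation marks as awaiting experimental proof. Of these, 22 (15.0%) were higher and 18 (12.2%) lower, with a median of 0.26, against 4.67% and 9.75% of all genes tested. The median of their mean counts was 9.17, and 26 of them had 1 fraction at 3 counts or fewer throughout.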
